A study of Arabidopsis thaliana with 3 samples.

Results

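The xyloglucan endotransglucosylase/hydrolases (XTH) were compared between the Arabidopsis thaliana mutant tdt-1 and wild type, in whole seedlings aged 3 days. Members were the loci whose array annotation describes a xyloglucan:xyloglucosyl transferase or a xyloglucan endotransglycosylase. This rule found 32 probes for 32 loci, of the 25665 loci on the array, with 1 probe per locus. The names XTH1 to XTH33 were then taken from the reference gene table, which holds all 33. XTH24 (AT4G30270, also called MERI5B) carries another description, lies outside the rule and is given separately.

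XTH enzymes act in the plant cell wall, where xyloglucan chains coat and link cellulose microfibrils. They cut a xyloglucan chain and join the new end to another chain, or, in a few members, to water, so that the wall can be extended or tightened without losing its polymer. In seedlings different members are active in elongating hypocotyls, roots, root hairs and vascular tissue.

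Seedlings of both genotypes grew on MS agar in constant light at 22 °C, and their RNA was amplified, labelled with Cy3 or Cy5 and hybridised in pairs to 3 two-colour Agilent oligonucleotide arrays, each with tdt-1 in one channel and wild type in the other. The design text calls the arrays biological replicates, and neither the labels nor the design text say how many seedlings or plates stood behind each. The labels name neither the affected gene nor the accession of the wild type. Trident mutants are known from the literature to carry lesions in DCP2, the mRNA decapping enzyme. Its probe read −0.44, −0.46 and −0.96 on replicates 1, 2 and 3 (log2 of tdt-1 over wild type, limma adjusted p = 0.0629), and since the lesion's place relative to the probe is unknown here, that value checks no label.

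Replicates 1 and 2 held tdt-1 in Cy5 and shared a scan day and an array layout, and replicate 3 was dye-swapped, of another layout and scanned on another day. Replicate 3 was also scanned at 5 rather than 10 microns per pixel and read with another version of the extraction software. Its dye, layout, scan day, scan resolution and software version therefore cannot be told apart. Over all 20484 loci tested, the ratios of replicates 1 and 2 correlated at r = 0.940, against 0.527 and 0.573 between either of them and replicate 3 (across genes, which are not independent replicates). The share of spots well above background was 69.4% for tdt-1 and 79.7% for wild type on replicate 1, and 65.2% and 76.7% on replicate 2. On the dye-swapped replicate 3 it was 67.4% and 69.4%, so the gap between genotypes was smaller there. The markers of root hairs (9 loci), of other root cells (4) and of green shoot tissue (5) were all above background in both genotypes on all arrays. In whole seedlings, fewer cells of a type and less RNA per cell cannot be told apart.

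Of the 32 XTH loci, 28 were tested, because at least one genotype was well above background on each array, and 27 of these were above background in both genotypes throughout. The exception was XTH25, for which wild type was above background on 2 of 3 arrays. XTH1, XTH2, XTH3 and XTH29 were not tested, since their spots were well above background on no more than 2 arrays in either genotype. No spot of a tested member was saturated.

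In tdt-1, transcripts of XTH16 and XTH15 rose and those of XTH8 and XTH5 fell. XTH16 was 1.91-fold higher and XTH15 was 1.69-fold higher, and XTH8 was 2.09-fold lower and XTH5 was 1.89-fold lower. These 4 of 28 members (14.3%) passed limma's test at an adjusted p under 0.05, where 13.3% of all loci tested did. In each direction 2 of 28 passed, beside 7.36% of all loci higher and 5.97% lower. The share of the family that passed was thus near that of the array as a whole.

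XTH16 (AT3G23730) had log2 ratios (tdt-1 over wild type, as everywhere here) of 0.96, 1.09 and 0.75 on replicates 1, 2 and 3. Its mean was 0.93 ± 0.17 (SD, n = 3, limma adjusted p = 0.0224), with tdt-1 above wild type on every array. XTH15 (AT4G14130), also known as XTR7 and a recurrent marker of the shade response in seedlings, had ratios of 0.77, 0.97 and 0.52. Its mean was 0.75 ± 0.22 (SD, n = 3, limma adjusted p = 0.0357), again with tdt-1 above wild type on all 3 arrays after normalisation. The normalised signal of XTH15 stood at 8.72 against 7.95 (log2, tdt-1 and wild type) on replicate 1, at 9.19 against 8.22 on replicate 2 and at 11.9 against 11.4 on replicate 3. Before normalisation, the XTH15 spot on replicate 3 read 3201 in tdt-1 and 3323 in wild type, so there the sign of the ratio followed the normalisation between channels. For XTH16 the corresponding unnormalised readings were 31126 and 29374. With the channels of each array only centred on their median, the ratios on replicate 3 were 0.28 for XTH15 and 0.41 for XTH16, so both stayed above 0.

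XTH8 (AT1G11545) had ratios of −1.15, −1.04 and −0.996, with a mean of −1.06 ± 0.08 (SD, n = 3, limma adjusted p = 0.0163). Its 3 arrays lay closer together than those of any other member past the test. XTH5 (AT5G13870) had ratios of −0.70, −1.25 and −0.80, with a mean of −0.92 ± 0.29 (SD, n = 3, limma adjusted p = 0.0336). Wild type was the higher channel on every array for both genes. The normalised signal of XTH5 stood at 6.86 against 7.56 on replicate 1, at 7.10 against 8.35 on replicate 2 and at 10.5 against 11.3 on replicate 3 (log2, tdt-1 and wild type). Before normalisation, XTH5 read only 105 in tdt-1 and 265 in wild type on replicate 1, and 136 and 382 on replicate 2. Its mean was −0.84 without background correction and −1.24 on the scanner's own ratio, so the size of the difference depended on the processing. XTH8 stood at 9.08 against 10.2, at 9.42 against 10.5 and at 12.9 against 13.9. Signal levels are not comparable between probes or between arrays of different layout, and only the difference within an array was tested.

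**Figure D1:**
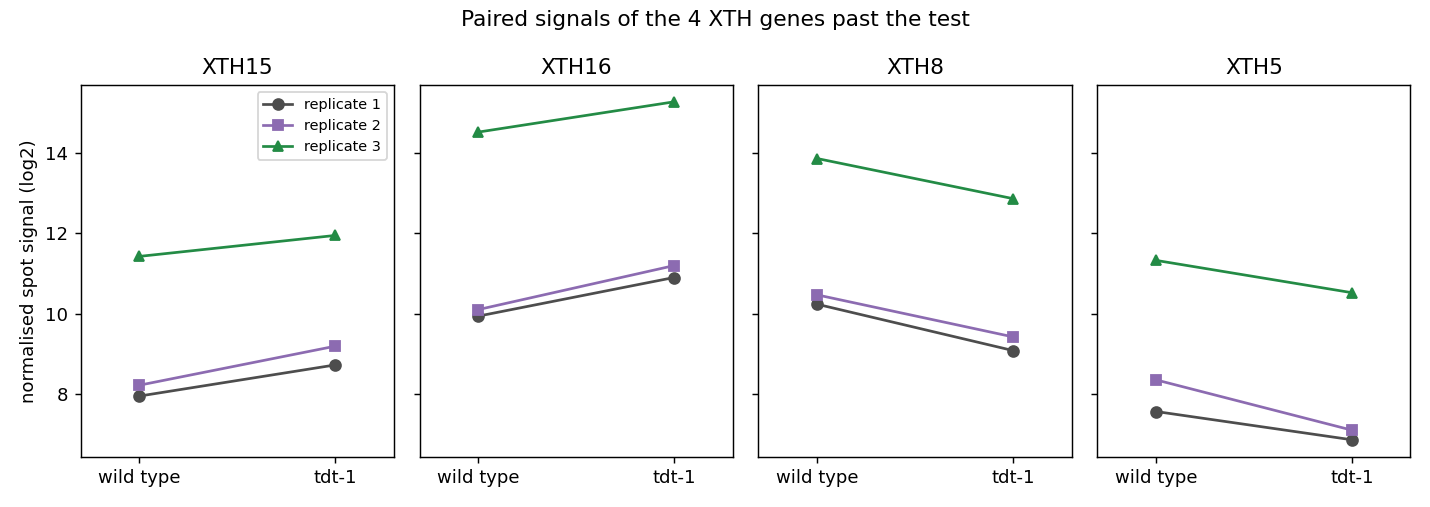
Normalised spot signal (log2, vertical axis) of wild type and tdt-1 for the 4 XTH genes past the test, with 1 line per array joining the channels of that array. All 3 lines rise for XTH15 and XTH16 and fall for XTH8 and XTH5, while replicate 3 lies higher on the axis in every panel.

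The array annotation places the XTH16 probe at chr3:8551180-8551239 on the plus strand, the XTH15 probe at chr4:8137169-8137228, the XTH8 probe at chr1:3878732-3878791 and the XTH5 probe at chr5:4475159-4475218, the last 3 on the minus strand. No source used here names the genome build behind these coordinates. Probe sequences were not used here, so signal from one XTH transcript on the probe of a close paralog was not tested.

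The 4 calls were lost without replicate 1 or replicate 2 and kept without replicate 3. Without replicate 1 their limma adjusted p lay between 0.0838 and 0.161, without replicate 2 between 0.0959 and 0.218, with median centring in place of loess between 0.164 and 0.229, and with replicates 1 and 2 averaged as 1 replicate (an alternative chosen after seeing the data) between 0.109 and 0.194, with the sign kept each time. Within replicates 1 and 2 alone, 20 of 28 members passed, 10 in each direction, beside 60.9% of all loci, a count that leaves out the spread toward replicate 3.

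The largest mean differences in the family belonged to XTH6, XTH31 and XTH23, which did not pass the test and in which replicate 3 lay far from the other arrays. XTH6 had ratios of −1.26, −1.15 and −2.92, a mean of −1.78 ± 0.99 (SD, n = 3, limma adjusted p = 0.0612). XTH31, whose product acts mainly as a xyloglucan hydrolase, had ratios of −1.74, −1.96 and −0.61, a mean of −1.44 ± 0.72 (limma adjusted p = 0.0524). XTH23, also called XTR6, had ratios of 2.05, 1.91 and 0.34, a mean of 1.44 ± 0.95 (limma adjusted p = 0.0827). These 3 genes and XTH8 were the members whose mean was at least 1 in size, which is 4 of 28 (14.3%), against 5.83% of all loci tested. The sign held on all 3 arrays in each of the 4, so what varied was the size.

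XTH7 had ratios of 1.40, 1.198 and 0.33 (mean 0.98 ± 0.57, limma adjusted p = 0.0704). XTH10 had ratios of −0.62, −0.51 and −1.33 (mean −0.82 ± 0.45, limma adjusted p = 0.0661), and it passed on the scanner's own log ratio, at −1.49 (adjusted p = 0.0236). XTH4, formerly EXGT-A1 and studied for its part in secondary walls, had ratios of −0.35, −0.46 and −1.26 (mean −0.69 ± 0.50, limma adjusted p = 0.106). XTH4, XTH6 and XTH10 were negative on all arrays and lowest on replicate 3, except that XTH4 was above 0 on replicates 1 and 2 with median centring. XTH7 and XTH23 were positive on all arrays and lowest on replicate 3, except that XTH7 read −0.07 there with median centring.

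**Figure D2:**
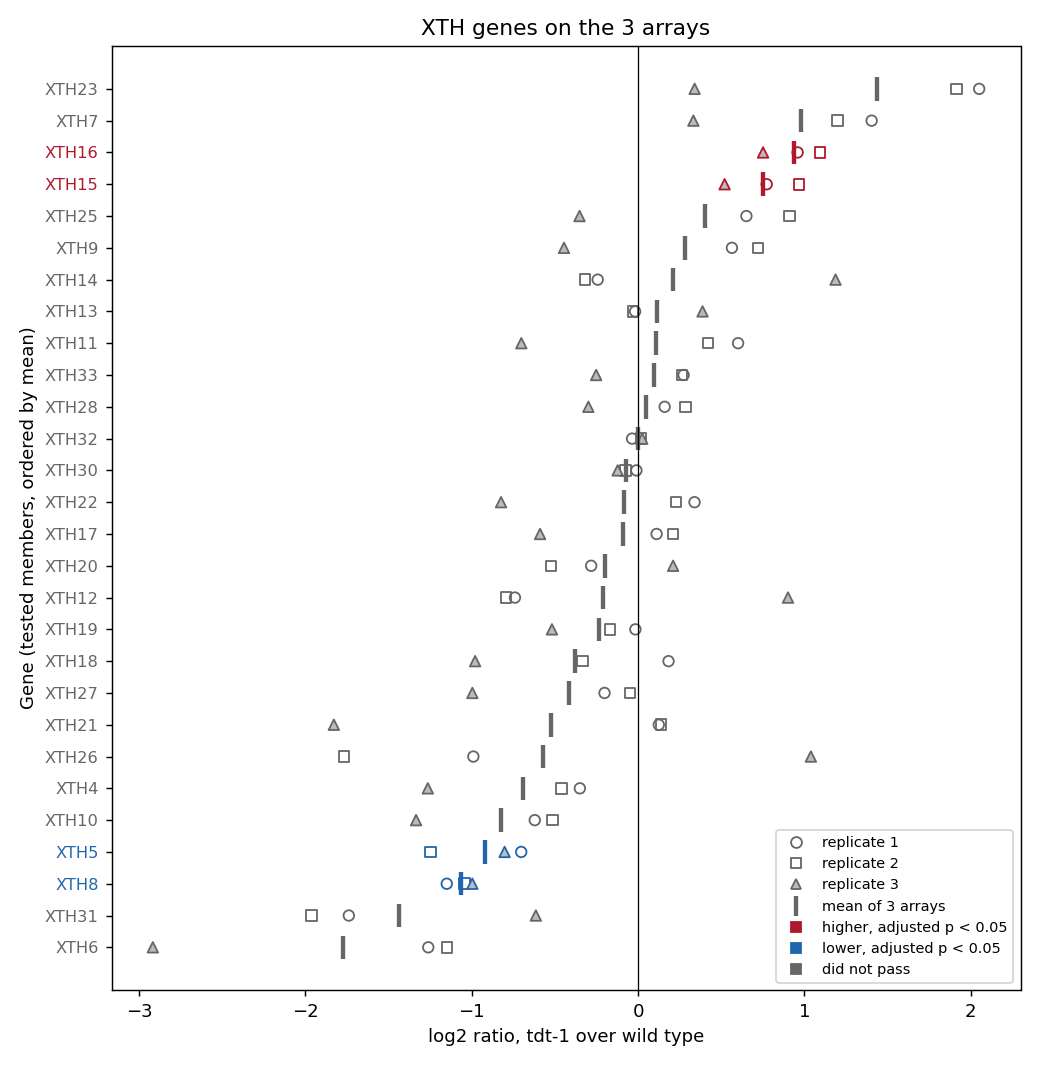
Log2 ratio of tdt-1 over wild type (horizontal axis) for the 28 tested XTH genes (vertical axis, ordered by mean), with 1 symbol per array and a bar at the mean. XTH16, XTH15, XTH8 and XTH5 are coloured as past the test, and in 11 genes the symbol of replicate 3 lies more than 1 log2 unit from the mean of the other arrays.

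Among the 28 members the median distance of replicate 3 from the mean of replicates 1 and 2 was 0.865 log2 units, against 0.322 over all loci tested. The median distance between replicates 1 and 2 was 0.129, against 0.097 over all loci. Accordingly the median SD over the 3 arrays was 0.504 in the family and 0.205 over all loci. Across the 28 members the ratios of replicates 1 and 2 correlated at r = 0.965, and those of replicate 3 correlated at 0.319 with replicate 1 and at 0.240 with replicate 2. In 11 members replicate 3 lay more than 1 log2 unit away, lower in 7 and higher in 4. The sign was shared by all arrays in 13 of 28 members (46.4%), against 58.9% of all loci. With median centring, 17 of 28 members lay more than 1 log2 unit away, and with the scanner's own ratio 11 did. The share of all loci that lay this far away was not counted. These counts, and those of the same kind for the lists below, therefore stand without a background.

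In 5 members, XTH12, XTH13, XTH14, XTH20 and XTH26, the ratio was below 0 on replicates 1 and 2 and above 0 on replicate 3. XTH12, XTH13, XTH14 and XTH26 encode enzymes studied in the root and its hairs, and XTH20 is known from the vascular tissue of the root. XTH26 had the widest spread of the family, at −0.99, −1.77 and 1.04 (mean −0.57 ± 1.45, limma adjusted p = 0.524). XTH12 read −0.74, −0.79 and 0.90 (mean −0.21 ± 0.96, limma adjusted p = 0.733), and XTH14 read −0.24, −0.32 and 1.19 (mean 0.21 ± 0.85, limma adjusted p = 0.700). XTH20 read −0.28, −0.52 and 0.21, and XTH13 stayed nearest 0, at −0.02, −0.03 and 0.39. The direction of XTH14 on replicates 1 and 2 was tied to the scaling, since with median centring it read 0.45, 0.28 and 0.84, and XTH13 and XTH20 also lost the pattern there (XTH13 on the scanner's own ratio too), while XTH12 (−0.75, −0.78 and 0.70) and XTH26 (−0.55, −1.52 and 0.80) kept it.

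Most markers of root hairs were also higher on replicate 3 than on the other arrays. The median ratio of the 9 root hair markers was −0.19, −0.35 and 0.79 on replicates 1, 2 and 3, and 7 of 9 were above 0 on replicate 3. RSL4, a transcription factor that drives root hair growth, read −0.38, −0.38 and 0.84, and the root hair expansin EXPA7 read −0.52, −0.35 and 0.84. None of the 9 passed the test, the smallest p being that of RHD6, which starts root hair development, at −0.25 ± 0.06 (SD, n = 3, limma adjusted p = 0.126). In 7 of 9 replicate 3 lay more than 1 log2 unit from the other arrays, and with median centring this held for 1 of 9. RSL2, one of these 7, went the other way, at −0.14, −0.42 and −1.29. The part of root hair content in the ratios of XTH12, XTH14 and XTH26 was not tested.

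A further 8 members read above 0 on replicates 1 and 2 and below 0 on replicate 3. The share of all loci with this pattern, or with the opposite one above, was not counted, so both counts stand without a background. XTH21, known from root growth, read 0.12, 0.14 and −1.83 (mean −0.52 ± 1.13). XTH9 read 0.56, 0.72 and −0.45, XTH11 read 0.60, 0.42 and −0.70, and XTH17, active in the root elongation zone, read 0.11, 0.21 and −0.59. The others were XTH22, XTH25, XTH28 and XTH33. None of the 8 passed the test. The mean of replicates 1 and 2 was 0.16 for XTH17, 0.13 for XTH21 and 0.28 for XTH22, opposite in sign to their means over all arrays. With median centring 7 of the 8 kept the pattern and XTH21 did not, but 13 of the 28 members showed it under that scaling.

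The 5 green shoot markers also stood lowest on replicate 3, with median ratios of −0.46, −0.49 and −1.82, the last being the ratio of RBCS1A, which had saturated spots, as had LHCA1. The 3 markers without saturated spots read −1.67 (LHCB2.1), −1.08 (LHCB1.3) and −2.43 (PSAN) on replicate 3, each below its values on the other arrays. All 5 were below 0 on all arrays, as were 5623 of the 20484 loci tested. With median centring, however, 4 of 5 were above 0 on replicates 1 and 2. With the scanner's own ratio 2 of 5, the saturated RBCS1A and LHCA1, changed sign between those replicates. Both read −0.22 and −0.36 on replicates 1 and 2 under loess, and saturated spots leave the size of their ratios uncertain. LHCB1.3, of the light-harvesting antenna, passed the test at −0.75 ± 0.30 (SD, n = 3, limma adjusted p = 0.0476), the only one of the 5 to do so. It missed the threshold under several alternatives, among them no background correction (0.0513), the scanner's own ratio (0.0592) and leaving out replicate 1 (0.164) or replicate 2 (0.145). Among the 4 markers of other root cells, CASP1 of the endodermis was higher at 0.69 ± 0.14 (SD, n = 3, limma adjusted p = 0.0295). This call was lost with median centring (adjusted p = 0.190), without replicate 1 (0.128) and without replicate 2 (0.220). SCR, WER and PIN2 did not pass, and their means lay below 0, at −0.36, −0.02 and −0.52. PIN2 was below 0 on all arrays, and the median of the 4 was −0.19. The part of these tissues in the ratios of XTH8, XTH5, XTH15 and XTH16 was not tested.

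**Figure D3:**
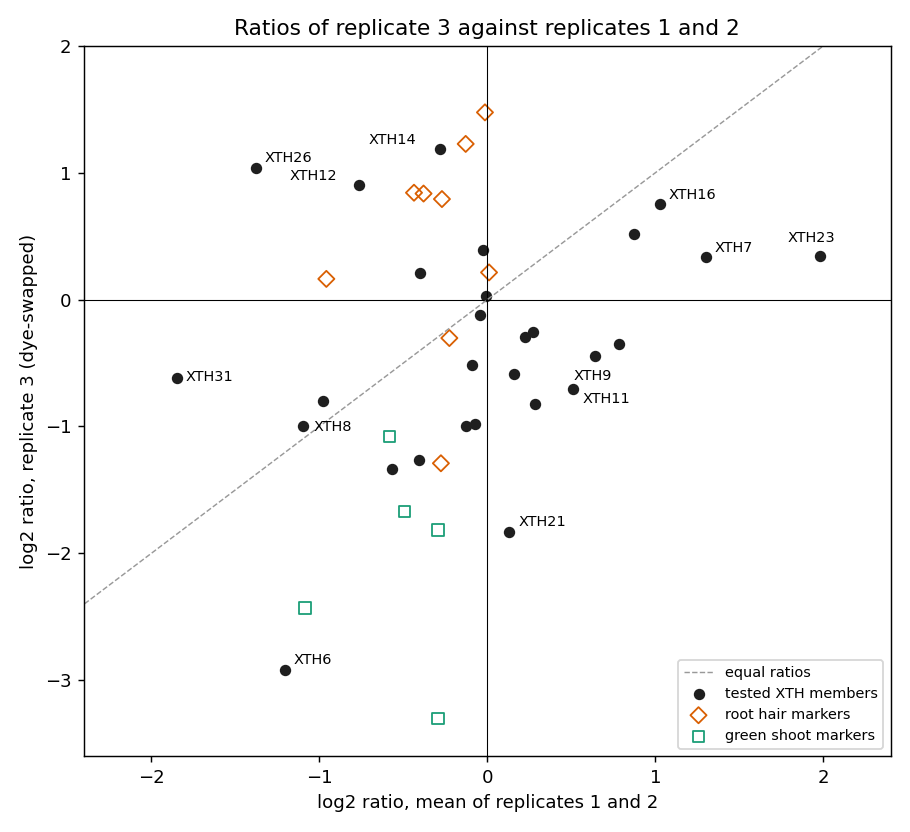
Log2 ratio of tdt-1 over wild type on the dye-swapped replicate 3 (vertical axis) against the mean of replicates 1 and 2 (horizontal axis), for the 28 tested XTH genes, 9 root hair markers and 5 green shoot markers, with a dashed line where the ratios are equal. XTH26, XTH12 and XTH14 lie in the upper left with most root hair markers. XTH21, XTH6 and XTH23 lie more than 1 log2 unit below the dashed line, as do 4 of 5 green shoot markers. These include RBCS1A and LHCA1, which had saturated spots.

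Several XTH genes are tandem neighbours in the reference gene order, and their ratios are given here side by side. On chromosome 4, XTH23 lies next to XTH14: on replicates 1, 2 and 3 XTH23 read 2.05, 1.91 and 0.34, and XTH14 read −0.24, −0.32 and 1.19. Further along chromosome 4 lie XTH24, XTH18 and XTH19. XTH24, outside the rule, read 1.73, 1.64 and 0.14 (mean 1.17 ± 0.89, limma adjusted p = 0.106), close to the values of XTH23 on each array. Its neighbour XTH18 read 0.18, −0.34 and −0.98, and XTH19 read −0.02, −0.17 and −0.52. XTH1 and XTH2, the remaining neighbours on chromosome 4, were not tested.

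On chromosome 5 the order is XTH12, XTH13, XTH25 and XTH22, with 1 other coding gene between XTH12 and XTH13. XTH12 and XTH13 were higher on replicate 3 than on the other arrays, except that XTH13 read 0.31, 0.32 and 0.27 with median centring. XTH25 read 0.65, 0.91 and −0.35 and XTH22 read 0.34, 0.23 and −0.82, so both were lower on replicate 3. The mean of XTH25 was 0.40, and on the scanner's own ratio it was 1.31 (limma adjusted p = 0.216). XTH22 is TCH4, the classical touch-induced XTH, and its mean was −0.09 ± 0.64 (limma adjusted p = 0.847). Of the 3 other touch genes tested none passed, and TCH3, a calmodulin-like protein, had the smallest p at −0.26 ± 0.19 (SD, n = 3, limma adjusted p = 0.189). Altogether 8 of the 10 members with a tandem neighbour were tested and none passed, beside 13.3% of all loci, a share at which 0 of 8 lies near the background.

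The group III enzymes, a separate branch of the family that holds XTH27 to XTH33, had 6 of 7 members tested, and none passed, which with 6 genes lies near the 13.3% of all loci. XTH31, above, was the lowest of them. XTH27, known from the differentiation of tracheary elements, read −0.20, −0.05 and −0.996. XTH28 read 0.16, 0.29 and −0.30, and XTH33, a member with a membrane anchor, read 0.27, 0.27 and −0.25. The closest to 0 was XTH32, which read −0.04, 0.02 and 0.03, with a 95% confidence interval of its mean from −0.23 to 0.23. XTH30 read −0.01, −0.08 and −0.12, with an interval from −0.30 to 0.16. These intervals apply to loess and rest on 3 arrays, 2 of which share dye, layout and scan day, so larger differences are not excluded. With median centring XTH32 moved to 0.27 and XTH30 to 0.23, each outside its interval.

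Taken as a list, the 28 members had a median ratio of −0.09, against 0.02 over all loci tested, and by array the median was −0.01, −0.04 and −0.40. The median size of the ratio was 0.390 in the family and 0.247 over all loci. At an unadjusted p under 0.05 stood 10 of 28 members (35.7%), beside 35.1% of all loci.

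Genes that make xyloglucan were set beside the enzymes that rework it. Of 15 genes for the backbone and side chains (CSLC glucan synthases, XXT xylosyltransferases, galactosyl-, fucosyl- and acetyltransferases), 1 was lower (6.67%, beside 5.97% of all loci), none was higher and 14 did not pass, with a median of 0.01. The lower gene was XLT2, a galactosyltransferase that acts on the xyloglucan side chain, at −1.13, −1.14 and −0.52 (mean −0.93 ± 0.36, limma adjusted p = 0.0406). XLT2 missed the threshold on the scanner's own log ratio (adjusted p = 0.0541), with local background subtraction (0.0503), with median centring (0.201), with replicates 1 and 2 averaged (0.183), without replicate 1 (0.157) and without replicate 2 (0.182).

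Of 7 genes that supply UDP-xylose or GDP-fucose none passed. Their median was 0.22, and all 7 were above 0 on all arrays, as were 6435 of the 20484 loci tested. With median centring 4 of 7 were above 0 on all arrays, and with the scanner's own ratio 5 of 7 were. UXS5, a UDP-xylose synthase, had the smallest p at 0.32 ± 0.09 (SD, n = 3, limma adjusted p = 0.0913).

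Of 5 exo-glycosidases that trim xyloglucan side chains and ends in the wall, 3 were higher in tdt-1, where 7.36% of all loci tested were higher. BGAL10, a beta-galactosidase, read 1.04, 0.88 and 0.67 (mean 0.86 ± 0.19, limma adjusted p = 0.0255). BGLC3, a beta-glucosidase, read 0.68, 0.68 and 1.03 (mean 0.79 ± 0.20, limma adjusted p = 0.0303). XYL1, an alpha-xylosidase, read 0.51, 0.54 and 0.60 (mean 0.55 ± 0.04, limma adjusted p = 0.0330). In each of these genes the normalised ratio was above 0 on every array. The fucosidase AXY8 stood at 0.32 ± 0.06 (limma adjusted p = 0.0797) and BGLC1 at −0.18 ± 0.28 (limma adjusted p = 0.400), and the median of the 5 was 0.55. Replicate 3 lay more than 1 log2 unit from the other arrays in 0 of these 5 under loess and in 3 of 5 with median centring, against 11 and 17 of 28 XTH members. The 3 calls were lost with median centring (adjusted p from 0.151 to 0.240), with replicates 1 and 2 averaged (from 0.145 to 0.238), without replicate 1 (from 0.118 to 0.206) and without replicate 2 (from 0.148 to 0.263), and that of XYL1 also with an intensity trend (0.0650).

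**Figure D4:**
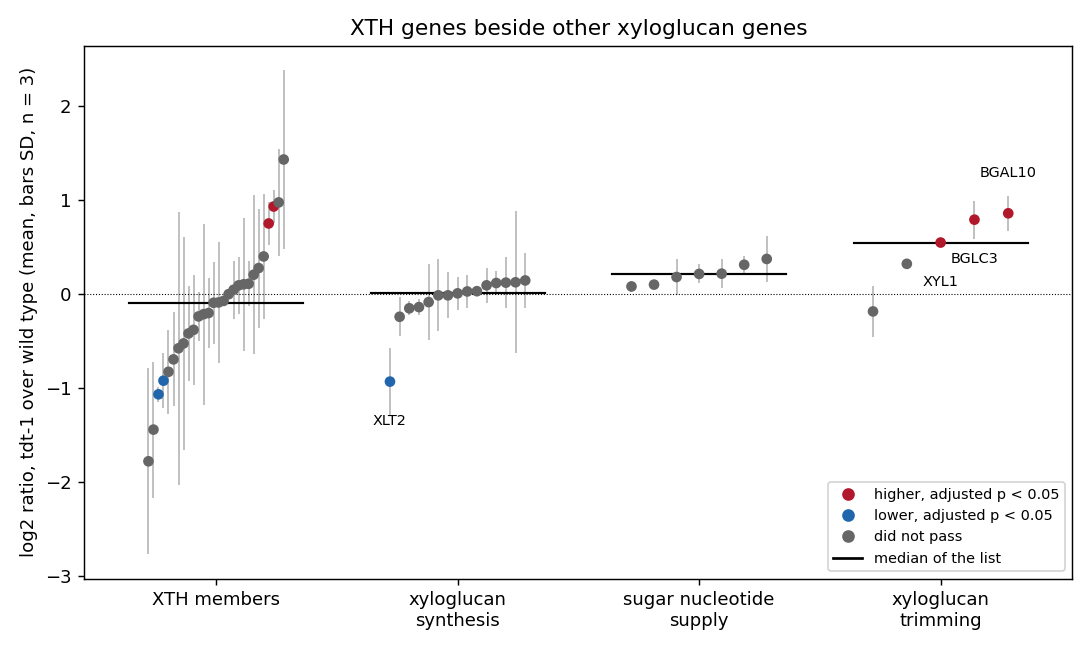
Mean log2 ratio of tdt-1 over wild type (vertical axis, bars 1 SD, n = 3 arrays) of each tested gene, in 4 columns for the XTH members, xyloglucan synthesis, sugar nucleotide supply and xyloglucan trimming, with a line at each list's median. The XTH members span the widest range, from −1.78 to 1.44, and 3 of 5 trimming glycosidases are coloured as higher.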

How the data were processed

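Per the file headers, the authors' scanner files give spot intensities of each channel with the local background, from Agilent Feature Extraction 8.5.1.1 (replicates 1 and 2) and 9.1.3.1 (replicate 3), and the software's dye-normalised log10 ratio of Cy5 over Cy3. The deposited series table holds log2 ratios that matched the scanner ratios (slope 1, r = 1) with tdt-1 over wild type, a median of 0 on each array and no open point of scale or direction. With limma 3.58.1 in R 4.3.3, intensities were corrected by normexp (offset 50) and normalised by loess within arrays, with zero weight for controls, and ratios of the dye-swapped array were inverted. Outlier spots (16, 11 and 81) were left out and spots of a probe averaged. A probe entered the test if one genotype, or both, exceeded background on every array, and the brightest probe stood for a locus.

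Log2 ratios were tested against 0 with lmFit and eBayes, and p-values were adjusted by Benjamini-Hochberg over all 20484 loci (threshold 0.05). The procedure was tested on simulated data with known changes. The reported test holds no dye term, which would leave 1 residual degree of freedom; a fit with it, the term for replicate 3, is among the alternatives. The number of arrays limits the precision, and ratios are relative to the bulk of transcripts. All 32 loci matched the reference table (RefSeq, TAIR10.1, used for names and gene order). The members and gene lists were chosen with earlier results of these data known, and subgroups within the family after seeing the values. Any member could be named; of each list, those past the test (at most 4) or the 1 with the smallest p, with EXPA7, RSL2 and RSL4 and the remaining trimming, root and green shoot markers named beyond that rule after seeing their values. The 16 alternatives cover background, normalisation, filters, probe choice, the replicate 3 term, weights, variance trend, averaging and leaving out arrays.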

Additional observations from a re-analysis of the deposited data

How the results depend on the processing

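XTH16, XTH15, XTH8 and XTH5 kept their direction under all 16 alternatives, and all 4 passed under background, probe and filter alternatives, the scanner and series table ratios, the intensity trend, the array weights and the term for replicate 3. With median centring 0 members were higher and 0 lower, beside 1 and 0 of all loci tested, and with replicates 1 and 2 averaged, added after seeing the data, 0 and 0, beside 24 and 19. A term for replicate 3 gave 7 higher and 12 lower members, beside 6941 and 6260 of all loci, and array weights gave 11 and 12, beside 8170 and 6710. Leaving out 1 array gave 0 to 10 members higher and 0 to 10 lower, beside 66 to 7002 and 45 to 5463 of all loci. The calls were lost without replicate 1 or 2, and counts grew without replicate 3. Array weights were 1.27, 7.40 and 0.106, so the larger counts rest mainly on the spread between replicates 1 and 2. Some members turned their sign and passed under an alternative: XTH14 read −0.29 with array weights, and from −0.28 to 0.47 with 1 array left out, XTH17 read 0.19 with array weights, and XTH22 read 0.23 with array weights, and from −0.30 to 0.28 with 1 array left out, the turned values of XTH14 and XTH22 being those without replicate 3. The cause was not tested. No separate paired analysis was run, because every array pairs the genotypes in 1 ratio and the reported test already uses that pairing. Scan day as a random block gave no estimate with 3 arrays, and averaging replicates 1 and 2 was used in its place.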
